A study of Rattus norvegicus with 21 samples.

Results

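Early weaned livers were set against control livers of Wistar rats at d23. The comparison rests on 6 RNA-seq libraries, chosen by their labels, of the 21 in the series: control 1 to 3 and early weaned 1 to 3. All 6 came from liver of Wistar rats at 23 days of age, and the labelled difference between the groups was early weaning. The labels give neither the day of weaning nor the sex, litter or animal of a sample. The labels therefore leave unknown whether each replicate was a separate animal. Y-chromosome transcripts, given below, show only that early weaned 1 was not the same animal as early weaned 2 or 3. A p-value covers only how these samples vary, which may be technical in part. The 6 Wistar libraries of d63, 3 control and 3 early weaned, shared the statistical model and are given side by side where they bear on a gene. The title of the series names beta-oxidation, cholesterol metabolism and adult obesity as its subject.

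Weaning moves a rat pup from milk, rich in fat and poor in starch, to a diet in which carbohydrate supplies most of the energy. The suckling liver oxidizes fatty acids in mitochondria and peroxisomes and makes ketone bodies. Many of these genes are targets of the fatty acid receptor PPARA. After weaning the liver takes up more glucose and makes more of its own fatty acids and cholesterol, and insulin, glucocorticoids and growth hormone take part in this change.

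Liver identity was clear in every library. Albumin (Alb) stood at 51112, 52607 and 85367 FPKM in control 1, 2 and 3 and at 33683, 42384 and 36825 FPKM in early weaned 1, 2 and 3, where FPKM is the level per length of transcript and per size of the library. Total counts ran from 58451039 to 67544310 units per d23 library, and 10641 to 10942 genes reached an FPKM of at least 1. Control 3 stood apart: its Pearson correlation of log2 CPM (counts scaled to library size) with the other d23 libraries ran from 0.906 to 0.914, against 0.950 to 0.961 among the others. The libraries also differed in transcripts of the Y chromosome. Their 48 entries summed to 5490 to 7287 count units in control 1 to 3 and early weaned 1, but to 90 in early weaned 2 and 124 in early weaned 3. At d63 only control 2 was that low, with 91 units. Eif2s3y, a translation factor gene of the Y chromosome, measured 10.2, 9.08 and 10.01 FPKM in the d23 controls, 10.5 FPKM in early weaned 1, and 0.00 and 0.01 FPKM in early weaned 2 and 3. Every d23 control held these transcripts and early weaned 2 and 3 nearly lacked them, so early weaning and this feature cannot be fully told apart at d23. Both features are given beside some of the results only.

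Between early weaned and control livers at d23, 2 of 15416 genes passed the test (0.013%), 1 higher and 1 lower in early weaned livers, by edgeR's quasi-likelihood test at a Benjamini-Hochberg adjusted p below 0.05. Without adjustment, 956 genes had a p below 0.05 (6.2%), of which 306 were higher (1.98%) and 650 lower (4.22%). The groups did not overlap in FPKM for 1279 genes (8.3%), 644 of them higher (4.18%) and 635 lower (4.12%) in early weaned livers. With control 3 left out, 3 genes passed, 1 higher (0.00632%) and 2 lower (0.0126%), which is 0.019% of 15820, and 7.92% had an unadjusted p below 0.05. With presence of Y-chromosome transcripts as a term in the model, 0 genes passed in edgeR and 717 had an unadjusted p below 0.05, and no other tool was run with that term.

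The gene that passed as lower was AABR07070810 (ENSRNOG00000061579), described in the deposited table as a pseudogene of ribosomal protein L12 and typed there as protein coding. It lies on chromosome 8, from 85489553 to 85490050 in the rat build of the deposited table. It measured 123, 153 and 114 FPKM in control 1, 2 and 3 and 30.3, 31.7 and 26.9 FPKM in early weaned 1, 2 and 3. Every control was above every early weaned library, and control 3 lay near the other controls. The log2 fold change was -2.16 ± 0.18 (SE), with an adjusted p of 0.00227. At d63 the entry stood at 74.5, 55.1 and 67.4 FPKM in controls and at 80.2, 55.2 and 65.9 FPKM in early weaned livers, where the groups overlapped. The early weaning effect at d23 exceeded that at d63 by -2.27 on the log2 scale, with an adjusted p of 0.0319. It was the only gene of 15416 whose effect differed between the ages by that test (0.00649%), while 4.72% had an unadjusted p below 0.05 for that difference, 2.43% towards higher and 2.29% towards lower at d23. With the Y-chromosome term its log2 fold change was -2.02 and its adjusted p 0.0806. In the fit on the libraries with Y-chromosome transcripts, which keeps early weaned 1 alone, the values were -2.13 and 0.231. On the 6 d23 libraries alone they were -2.14 and 0.0620, so the call was lost there too.

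Copies of one gene can share reads, so the level of this entry is uncertain. The parent gene Rpl12 on chromosome 3, which encodes a protein of the large ribosomal subunit, was higher. Its level was 234, 232 and 207 FPKM in control 1 to 3 and 338, 327 and 280 FPKM in early weaned 1 to 3, again without overlap. LOC102555453, an L12-like copy on chromosome X, measured 156, 120 and 127 FPKM in controls and 70.7, 71.3 and 53.9 FPKM in early weaned livers, with a log2 fold change of -1.07 and an adjusted p of 0.17. A copy of the same name on chromosome 7 was also lower, at 15.6, 18.1 and 11.99 against 8.18, 6.76 and 8.77 FPKM. Summed over these 4 entries, CPM were 294, 293 and 256 in controls and 261, 254 and 216 in early weaned livers, which overlap. The called entry held 21.4%, 26.7% and 22.8% of that sum in controls and 5.93%, 6.37% and 6.36% in early weaned livers. The share differed more between the groups than the sum did.

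Cd274, which encodes the immune checkpoint ligand PD-L1, was the gene that passed as higher, with an adjusted p of 0.0406. It rested on 0 count units in each control and on 7, 8 and 8 units in the early weaned libraries. A fragment is worth about 4 units in this table, and all 6 values lie under the limit of 12 units per library that a count of 0 allows. No fold is given. On counts divided by 4 its adjusted p was 0.644.

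**Figure D1:**
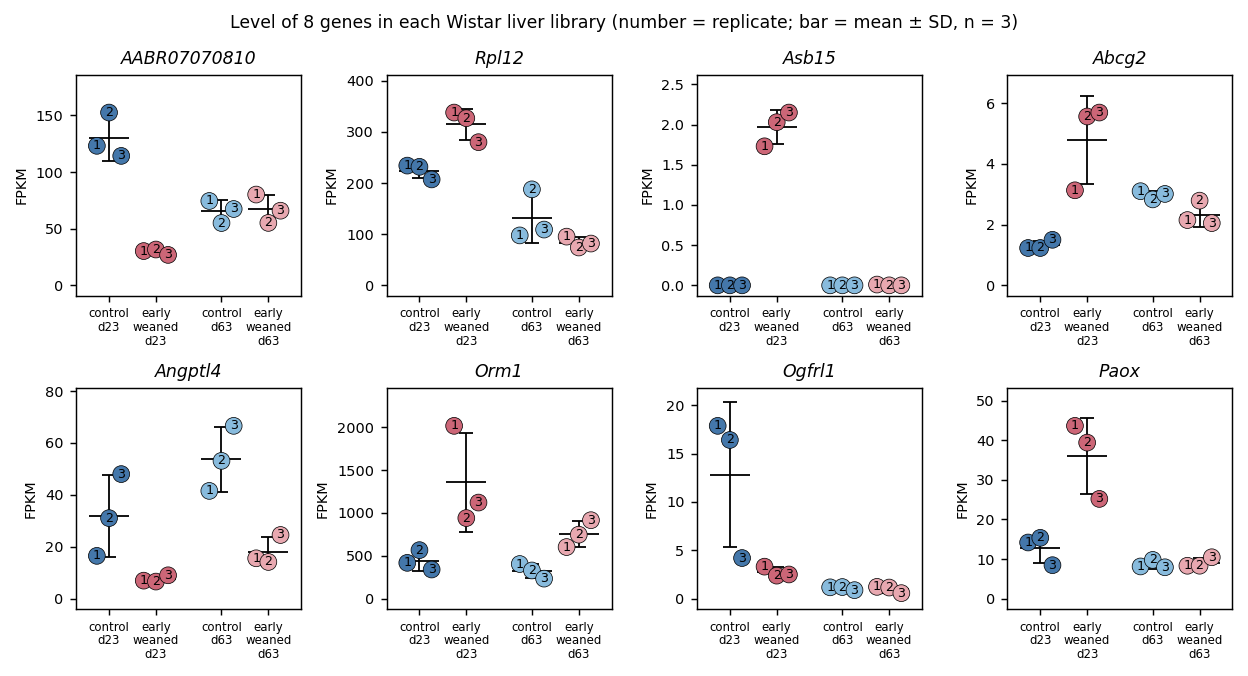
Level in FPKM (linear vertical axis) of 8 genes in the 12 Wistar libraries, by group, with replicate numbers in the points and bars for mean ± SD (n = 3). AABR07070810 is lower and Rpl12 higher in all 3 early weaned d23 libraries than in all 3 controls, while Asb15 is at 0.00 FPKM in every control.

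Next to these stood genes whose groups were far apart but that missed the adjusted threshold. Asb15, which encodes an ankyrin repeat and SOCS box protein best known from skeletal muscle, had 0 counts in all 3 controls. In early weaned 1, 2 and 3 it measured 1.73, 2.03 and 2.15 FPKM, with 494 to 633 count units. Set against the limit of 12 units per control library, its mean was at least 42.2-fold higher in early weaned livers. Its adjusted p was 0.0602, and it passed in 8 of the 20 fits, among them DESeq2 and limma on FPKM. At d63 no library held more than 4 units of it, in either group.

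Abcg2, a transporter that exports drugs, urate and porphyrins, measured 1.23, 1.23 and 1.50 FPKM in control 1, 2 and 3. Early weaned 1 stood at 3.13 FPKM, and early weaned 2 and 3, which lacked Y-chromosome transcripts, stood at 5.56 and 5.69 FPKM. All early weaned libraries were above all controls, with a log2 fold change of 1.83 ± 0.24 (SE) and an adjusted p of 0.0549. With the Y-chromosome term the log2 fold change was 1.55 and the adjusted p 0.263. At d63 the order was the reverse, 3.10, 2.83 and 3.01 FPKM in controls against 2.15, 2.79 and 2.05 FPKM.

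Vwa1, which encodes an extracellular matrix protein of basement membranes, measured 0.50, 0.48 and 0.47 FPKM in controls and 4.34, 3.42 and 1.72 FPKM in early weaned livers (log2 fold change 2.67, adjusted p 0.0597). Paox, the peroxisomal polyamine oxidase, measured 14.2, 15.4 and 8.45 FPKM against 43.6, 39.4 and 25.2 FPKM (1.49, adjusted p 0.17). Txndc12, a thioredoxin-like protein of the endoplasmic reticulum, stood at 21.5, 24.4 and 26.6 against 53.5, 35.9 and 61.3 FPKM. Each of these was higher in all early weaned livers than in all controls. Fam110c, at 0.31 to 0.57 against 1.32 to 1.88 FPKM, and the unnamed entries AABR07053166 and AABR07010030 completed the 8 leading genes in that direction. Their log2 fold changes were 1.81, 1.23 and 2.55.

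Among genes lower in early weaned livers, Angptl4 led those of lipid metabolism. It encodes a secreted inhibitor of lipoprotein lipase that is induced by fasting, fatty acids and glucocorticoids. Its level was 16.5, 31.0 and 48.0 FPKM in control 1, 2 and 3 and 6.94, 6.58 and 9.0 FPKM in early weaned 1, 2 and 3. Control 3 was the highest, yet the lowest control remained above every early weaned library. The log2 fold change was -2.11 ± 0.36 (SE), with an adjusted p of 0.17, and -1.68 without control 3. At d63 Angptl4 was again lower in all early weaned livers, with 15.6, 14.1 and 24.5 FPKM against 41.5, 53.1 and 66.6 FPKM in controls (log2 fold change -1.48).

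Ogfrl1, named for its likeness to the opioid growth factor receptor, measured 17.9 and 16.4 FPKM in control 1 and 2 but 4.20 FPKM in control 3, and 3.31, 2.38 and 2.50 FPKM in early weaned livers. Control 3 lay near the early weaned libraries. Over all libraries its adjusted p was 0.314. It passed over all libraries in DESeq2 and in limma voom with quality weights. In edgeR it passed without control 3, with a log2 fold change of -2.68 and an adjusted p of 0.0270. Oca2, which encodes a melanosomal anion channel, stood at 1.67, 1.53 and 1.60 FPKM against 0.43, 0.47 and 0.28 FPKM, with an adjusted p of 0.17. Igfals, the acid-labile subunit that holds IGF1 in the circulation, measured 1.86, 3.54 and 12.3 FPKM against 0.68, 0.96 and 1.03 FPKM (log2 fold change -2.75, adjusted p 0.286). In both d63 groups Igfals was far higher, from 73.8 to 115 FPKM. Fam114a1, Arvcf and Col14a1 were the remaining named genes of this direction, with log2 fold changes of -1.25, -0.76 and -1.09. Without control 3, Tmem125 had a log2 fold change of -1.52, against -2.65 with it, and Pusl1 had -0.85, against -0.63. Both had an adjusted p of 0.170 without control 3, and Slc18b1, which was higher, had 0.0655.

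Genes of the extracellular matrix were lower in early weaned livers in most members. These genes encode collagens, basement membrane proteins and the enzymes that cross-link or cut them, made in liver mostly by stellate cells and fibroblasts. Of 25 members tested, 0 passed the test. In 22 the early weaned mean was lower, and in 16 all early weaned libraries were below all controls, where 4.12% of all tested genes did so. The median log2 fold change was -0.44, against -0.03 over all genes. It was -0.40 without control 3, with 18 members not overlapping (10.4% of all genes), -0.42 with the Y-chromosome term and -0.46 in the libraries with Y-chromosome transcripts. By library, the list's median deviation from the middle of the 6 was 0.22, 0.18 and 0.23 on the log2 scale in control 1, 2 and 3 and -0.16, -0.15 and -0.23 in early weaned 1, 2 and 3. Its summed FPKM, which the most abundant members dominate, did overlap, at 1037, 997 and 855 in controls and 927, 943 and 986 in early weaned livers.

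Fibrillar collagens showed the lower level plainly. Col1a1, a chain of type I collagen, measured 4.70, 7.12 and 8.17 FPKM in controls and 3.21, 3.39 and 3.25 FPKM in early weaned livers (log2 fold change -1.04 ± 0.27 SE, adjusted p 0.549). Col3a1, the chain of type III collagen, measured 141, 157 and 128 against 106, 109 and 100 FPKM. Col14a1, a fibril-associated collagen, stood at 7.79, 7.19 and 10.1 against 3.08, 4.79 and 4.17 FPKM, the smallest p of the list (adjusted p 0.286). Col5a2 was at 5.65, 6.27 and 5.48 against 3.76, 3.93 and 3.75 FPKM. In each of the 4 the early weaned libraries lay together below the controls.

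The basement membrane collagen Col4a1 was at 19.3, 19 and 20.5 FPKM in controls and at 16.0, 14.2 and 14.7 FPKM in early weaned livers. Sparc, a collagen-binding matrix protein, measured 193, 219 and 190 against 175, 144 and 165 FPKM, and the gelatinase Mmp2 measured 8.76, 9.83 and 7.61 against 6.26, 5.28 and 5.76 FPKM. The exceptions were Col18a1, the source of endostatin, which was higher without overlap at 151, 127 and 148 against 153, 176 and 192 FPKM, and Fn1 and Timp1, which were higher with overlap. Hepatocytes also make Fn1 and Col18a1.

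Markers of the cells that make matrix moved in part with it. Of 14 tested stellate cell and fibroblast markers, 10 were lower and 4 higher, with a median log2 fold change of -0.21, and some collagens belong to both lists. The summed FPKM of that list was 324, 359 and 284 in controls and 276, 255 and 275 in early weaned livers, without overlap. Without Col3a1 it was 183, 202 and 156 against 169.8, 146 and 174, which overlap. Of the 14 markers, 3 were lower without overlap, against 4.12% of all genes: Lrat, Col1a1 and Col3a1. Col1a1 and Col3a1 are also members of the matrix list. Lrat, the enzyme with which stellate cells store vitamin A, was at 4.73, 5.79 and 4.14 against 2.29, 3.70 and 2.35 FPKM. Dcn, Des and Hgf overlapped between groups. In whole liver, fewer cells of a type and less RNA per cell cannot be told apart. At d63 the matrix list was lower in 21 of 25 members, with a median of -0.20, and the effect was not shown to differ between the ages for any member.

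**Figure D2:**
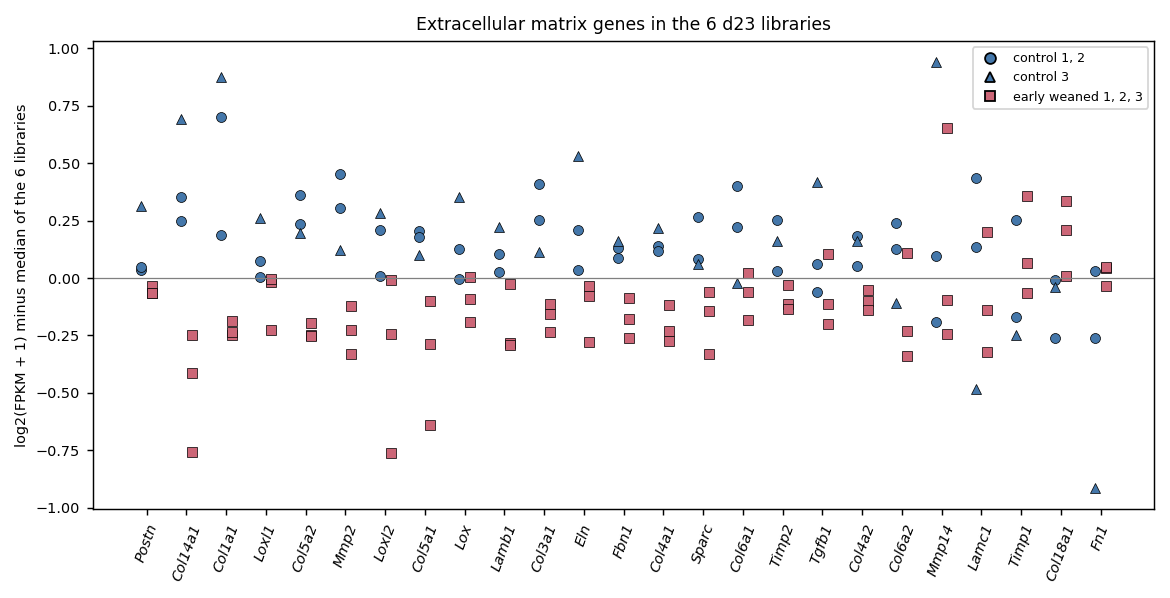
Each of the 25 tested matrix genes (horizontal axis) in the 6 d23 libraries, as log2(FPKM + 1) minus the median of the 6 (vertical axis), with circles for control 1 and 2, triangles for control 3 and squares for early weaned libraries. In 16 genes all squares lie below all blue points, and control 3 is the highest of the 6 libraries in 12 of the 25.

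Acute phase genes, which hepatocytes raise during inflammation, stood higher in part. Of 20 tested, 14 were higher and 6 lower, with 6 higher and 1 lower without overlap, where 4.18% of all tested genes were higher and 4.12% lower in that way. The median log2 fold change was 0.37, and 0.15 without control 3. Orm1, orosomucoid, measured 418, 566 and 340 FPKM in controls and 2016, 940 and 1121 FPKM in early weaned livers (log2 fold change 1.60 ± 0.33 SE, adjusted p 0.296). It was also higher in all early weaned livers at d63, with 602, 746 and 915 against 404, 329 and 234 FPKM. Lcn2, an iron-binding protein of neutrophils and inflamed hepatocytes, was at 4.03, 4.97 and 3.60 against 28.3, 9.58 and 23.8 FPKM, and Lbp, which binds bacterial lipopolysaccharide, at 129, 133 and 101.35 against 183, 203 and 223 FPKM.

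Hpx, Cp and Itih4 were the other members higher without overlap, with log2 fold changes of 0.54, 0.43 and 0.40. Crp, Hamp, Fga and Fgg overlapped between groups. Albumin, which falls in an acute phase response, was the member lower without overlap. Its log2 fold change was -0.77, and -0.49 without control 3. Ttr, transthyretin, another such plasma protein from the hepatocyte list, measured 4080, 5273 and 8620 against 3320, 3327 and 2235 FPKM. Control 3 was the highest d23 library for both. Cd14, the co-receptor for lipopolysaccharide on macrophages, was at 29.1, 39.8 and 23.6 against 86.0, 42.4 and 85.2 FPKM (1.18, adjusted p 0.55). Of 14 macrophage markers, 7 were higher and 7 lower, with a median of 0.01. The summed neutrophil markers ran from 5.6 to 11.6 FPKM in controls and from 17.2 to 34.5 FPKM in early weaned livers, and 3 of 14 markers were at 0 in all 6 libraries. Without Lcn2 the sums were 1.52, 2.99 and 8.03 FPKM in controls and 6.17, 7.59 and 5.24 FPKM in early weaned livers, which overlap.

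Drug-metabolizing cytochromes P450 were mostly higher, 17 of 22, with a median log2 fold change of 0.23. Without overlap 5 were higher and 0 lower, against 4.18% and 4.12% of all genes. Cyp3a18 measured 134, 48.5 and 50.5 FPKM in controls against 475, 314 and 450 FPKM in early weaned livers (2.37, adjusted p 0.784). Cyp2e1, the ethanol- and ketone-inducible enzyme, was at 2343, 2696 and 1754 against 2981, 2996 and 3954 FPKM, and Cyp2a1 at 170, 114 and 138 against 197, 192 and 221 FPKM. Cyp2b1 and Cyp3a9 were the others. Genes of this family resemble each other, so counts may be divided among them. In the libraries with Y-chromosome transcripts the median of the list was -0.02.

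For PPARA targets, the main fatty acid response of the liver, 23 of 26 were lower in early weaned livers, with a median log2 fold change of -0.63. This median was -0.12 without control 3, with 16 members lower and 10 higher. Control 3 was above the other 5 d23 libraries in 20 of the 26. Without overlap, Fgf21, Angptl4, Acot1, Acot2 and Plin2 were lower and no member was higher, against 4.12% of all genes lower. All 5 were also lower without overlap at d63, where 13.7% of all genes were.

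Plin2, which coats lipid droplets, measured 7.81, 9.12 and 75.7 FPKM in control 1, 2 and 3 and 4.91, 3.4 and 6.92 FPKM in early weaned livers. At d63 it measured 62.7, 88.3 and 89.1 against 28.9, 29.3 and 21.98 FPKM. Acot2, a mitochondrial acyl-CoA thioesterase, was at 9.10, 5.46 and 35.0 against 4.31, 3.46 and 4.62 FPKM. Fgf21, the fasting hormone, was listed at 0 in every early weaned library and at 0.29, 0.10 and 6.60 FPKM in controls, where control 1 and 2 were themselves under the limit of 12 count units. The log2 fold change without control 3 was -0.77 for Plin2, against -2.64 with it, and -0.86 for Acot2, against -2.03. Cpt1a, which admits fatty acids to mitochondria, at 239, 192 and 169 against 222, 235 and 196 FPKM, and Ppara itself overlapped between groups.

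Mitochondrial beta-oxidation depended on control 3 for its direction. Over all libraries 16 of 20 members were lower, with a median log2 fold change of -0.36. Without control 3, 16 were higher and 4 lower, with a median of 0.16 and 7 higher without overlap (11.9% of all genes). Acadm, the medium-chain acyl-CoA dehydrogenase, measured 87.97 and 89.98 FPKM in control 1 and 2, 222 FPKM in control 3, and 90.2, 100 and 110 FPKM in early weaned livers. The peroxisomal and omega-oxidation list turned in the same way, from a median of -0.37 to 0.20. For ketogenesis the median was -0.32, and -0.07 without control 3.

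Cholesterol synthesis genes, the enzymes from acetyl-CoA to cholesterol and their sterol regulators, were higher in 21 of 26 members, with a median log2 fold change of 0.53 and of 0.38 without control 3. Only Hsd17b7 did so without overlap, so the share of 1 in 26 was near the 4.18% of all genes. The libraries within each group differed. The list's median deviation was -0.54, 0.28 and -0.49 in control 1, 2 and 3 and -0.30, 0.78 and 0.26 in early weaned 1, 2 and 3. Early weaned 2 was the highest, and control 2, which held Y-chromosome transcripts, lay beside early weaned 3, which nearly lacked them. With the Y-chromosome term the median was 0.06. In the libraries with Y-chromosome transcripts it was -0.19. Hmgcs1, which makes HMG-CoA, was at 12.1, 39.6 and 62.0 FPKM in controls and at 16.8, 84.9 and 73.3 FPKM in early weaned livers. For Hmgcs1, early weaned 1 lay within the range of the controls.

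Sterol export and lipoprotein genes were read next. Abcg5, which pairs with Abcg8 to secrete sterols into bile, measured 25.0, 25.7 and 24.4 FPKM in controls and 35.2, 37.3 and 42.3 FPKM in early weaned livers (0.58, adjusted p 0.754). Abcg8, its partner, was at 7.47, 7.30 and 4.81 against 11.9, 9.04 and 13.4 FPKM. Lpl, lipoprotein lipase, was at 8.62, 8.29 and 9.29 against 14.3, 12.6 and 13.2 FPKM. These and Mylip were the 4 of 27 members of the efflux and lipoprotein list that were higher without overlap, against 4.18% of all genes. Apoa4 and Apoc3, apolipoproteins of triglyceride-rich particles, were the 2 lower without overlap, against 4.12% of all genes. Apoa4 was at 280, 346 and 386 against 164, 226 and 169 FPKM. At d63 Abcg5, Abcg8 and Lpl overlapped between groups, and their log2 fold changes there were -0.25, -1.09 and -0.67.

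Bile acid genes divided evenly, 13 higher and 11 lower of 24, with a median of 0.05. Of these, 4 were higher without overlap, against 4.18% of all genes: Slco1a4 and Slco1a1, which take bile acids and other organic anions up into hepatocytes, Slc27a5, which activates bile acids for conjugation, and Hsd3b7, an early enzyme of their synthesis. Slco1a4 measured 44.2, 30 and 26.9 FPKM in controls and 74.5, 71.95 and 62.5 FPKM in early weaned livers (1.02, adjusted p 0.641). Hsd3b7 was also higher without overlap at d63, with a log2 fold change of 0.78 there and 0.51 at d23. Cyp7a1, the hydroxylase that sets the pace of bile acid formation, overlapped at 276, 222 and 30.1 against 118, 338 and 246 FPKM.

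Fatty acid and triglyceride synthesis was split, 12 higher and 12 lower, and without control 3 it was higher in 19 of 24 with a median of 0.32. Fasn, fatty acid synthase, was at 1.83, 3.44 and 3.44 against 3.15, 5.64 and 5.27 FPKM. Of 18 genes of gluconeogenesis and glycogen, 1 was higher without overlap, a share near the 4.18% of all genes. G6pc, glucose-6-phosphatase, measured 2180, 1364 and 626 FPKM in controls and 933, 1591 and 1608 FPKM in early weaned livers, which overlap. Genes of nuclear-encoded oxidative phosphorylation were higher in 25 of 39, with a median of 0.04, and in 38 of 39 without control 3, with a median of 0.17 and 15 without overlap. Without control 3, 7734 of all 15416 tested genes were higher, and 11.9% were so without overlap. Small and same-sided shifts of this kind are read from counts only, since 0 members passed in edgeR. Over all 52 lists with at least 5 tested members, 0 members passed in edgeR, while DESeq2 called at least Orm1 and Angptl4. The median of a list changed sign in 13 when control 3 was left out and moved nearer to 0 in 32.

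**Figure D3:**
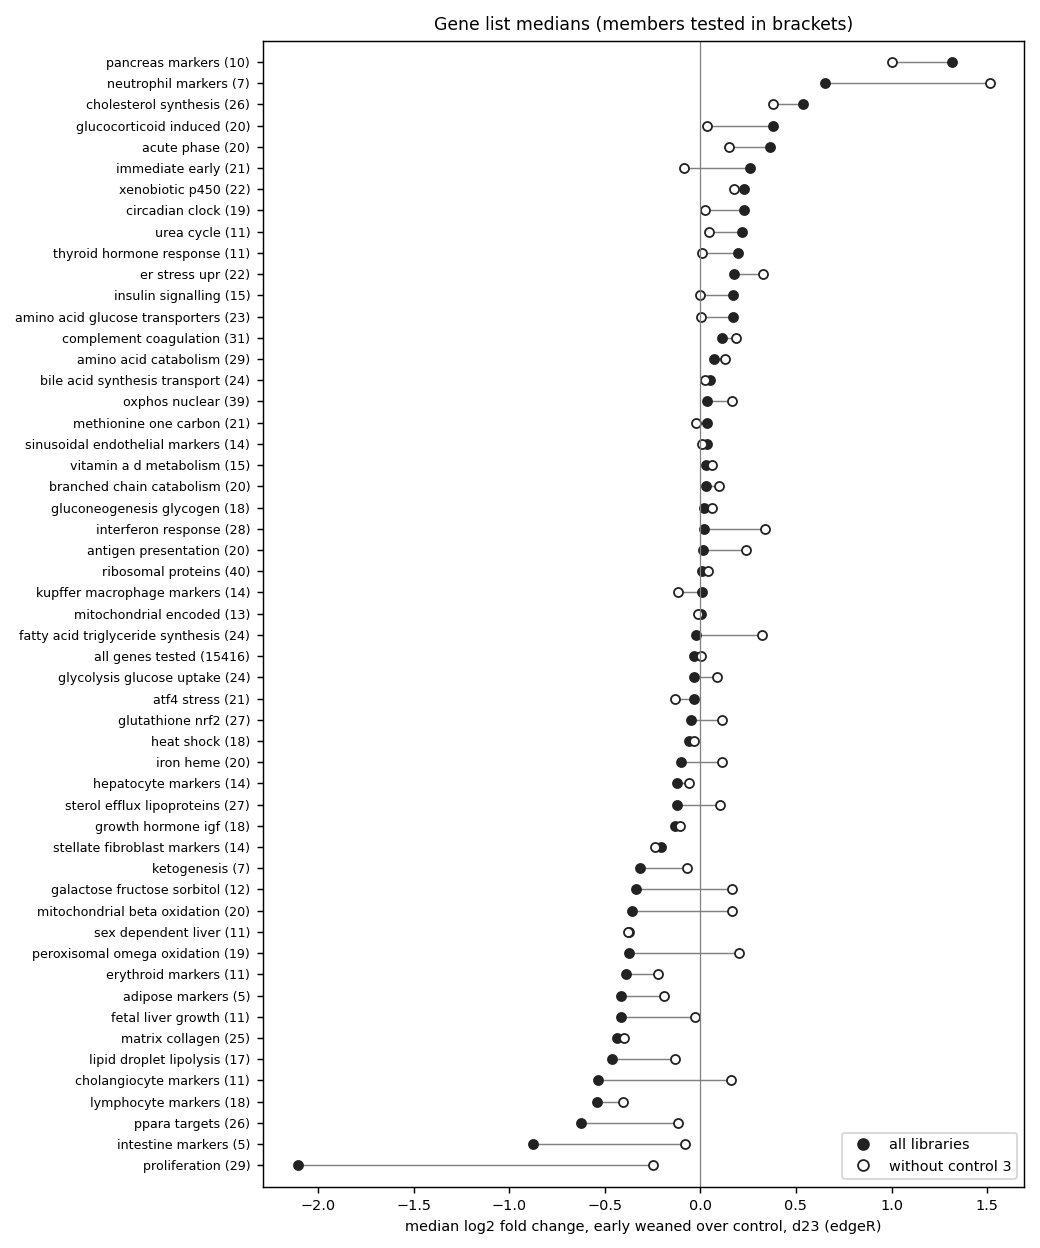
Median log2 fold change of early weaned over control livers at d23 (horizontal axis) for each gene list and for all genes tested (vertical axis, members tested in brackets), with filled circles for all libraries and open circles without control 3. The matrix list stays near -0.4 in both, whereas proliferation moves from -2.11 to -0.25 and beta-oxidation from -0.36 to 0.16.

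Control 3 lay outside the other d23 libraries in many genes. Among 6464 genes with a mean FPKM of at least 5 at d23, 120 were over 1 on the log2(FPKM + 1) scale above the highest of the other 5 libraries in control 3, and 390 were as far below the lowest. Each of the other libraries held 8 to 18 such genes in both directions together. Over all tested genes, control 3 was above the other 5 in 31.9% and below them in 27.8%. Albumin took 18.1% of its counts, against 7.16% to 11.2% in the others. The labels do not set it apart, so it stayed in the comparison.

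Genes high in control 3 included enzymes of lipid metabolism and genes of dividing cells. G0s2, an inhibitor of adipose triglyceride lipase, was at 115 FPKM in control 3 and at 0.48 to 0.85 FPKM in the other 5. Cyp8b1, which makes cholic acid, was at 278 against 7.17 to 29.3 FPKM, Scd, stearoyl-CoA desaturase, at 127 against 1.23 to 14.7 FPKM, and Ldha, lactate dehydrogenase, at 878 against 91.2 to 119 FPKM. Afp, alpha-fetoprotein of the fetal and neonatal liver, was at 70.5 against 0.59 to 9.49 FPKM. Of 29 tested proliferation genes, 24 were highest in control 3, 15 of them by over 1 on that scale. Mki67, a marker of cycling cells, was at 3.96 FPKM there and at 0.02 to 0.09 FPKM elsewhere at d23, and Cdk1, the mitotic kinase, at 8.31 against 0.00 to 0.18 FPKM.

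Genes low in control 3 included those of the immediate early and glucocorticoid responses, many with short-lived RNAs. Btg2, an antiproliferative early gene, was at 8.48 FPKM in control 3 and at 303 to 599 FPKM in the other 5. Chac1, a glutathione-degrading enzyme induced by ATF4, was at 0.81 against 59.4 to 568 FPKM, and Maff, a small MAF transcription factor, at 0.39 against 31.5 to 85.9 FPKM. Fst, Ddit4, Gadd45b, Gadd45g and Ppp1r3g completed the 8 farthest below. Igfbp1, a binding protein for IGFs that fasting and stress induce, was at 473 against 5747 to 8427 FPKM. Of 21 tested immediate early genes, 16 were lowest in control 3, and of 20 glucocorticoid-induced genes, 16. Without it the immediate early list's median log2 fold change went from 0.26 to -0.08, and the glucocorticoid list's from 0.38 to 0.03.

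The d63 libraries were set beside these genes. Of the 120 genes far above in control 3, 108 (90.0%) were nearer to the median of the 6 d63 libraries than to that of the other d23 libraries, and of the 390 far below, 382 (97.95%) were. These genes were picked for lying far from the other d23 libraries, which favours nearness to d63 beforehand. The same share was not taken over all genes or for another library, so it does not show a likeness to d63. Within the range of the d63 libraries lay 55 of the 120 (45.8%) and 230 of the 390 (59.0%), and 40 and 99 lay beyond that range. G0s2 was at 122 to 195 FPKM at d63 and Btg2 at 3.62 to 6.61 FPKM. The proliferation genes and Afp were exceptions, with Mki67 at 0.04 to 0.34 FPKM and Afp at 3.93 to 5.15 FPKM in the d63 libraries, both below control 3. The interferon list, with a median deviation of 1.65 to 2.70 at d63, was at 0.26 in control 3. Igfals stood at 12.3 FPKM there, under the 73.8 FPKM of the lowest d63 library.

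**Figure D4:**
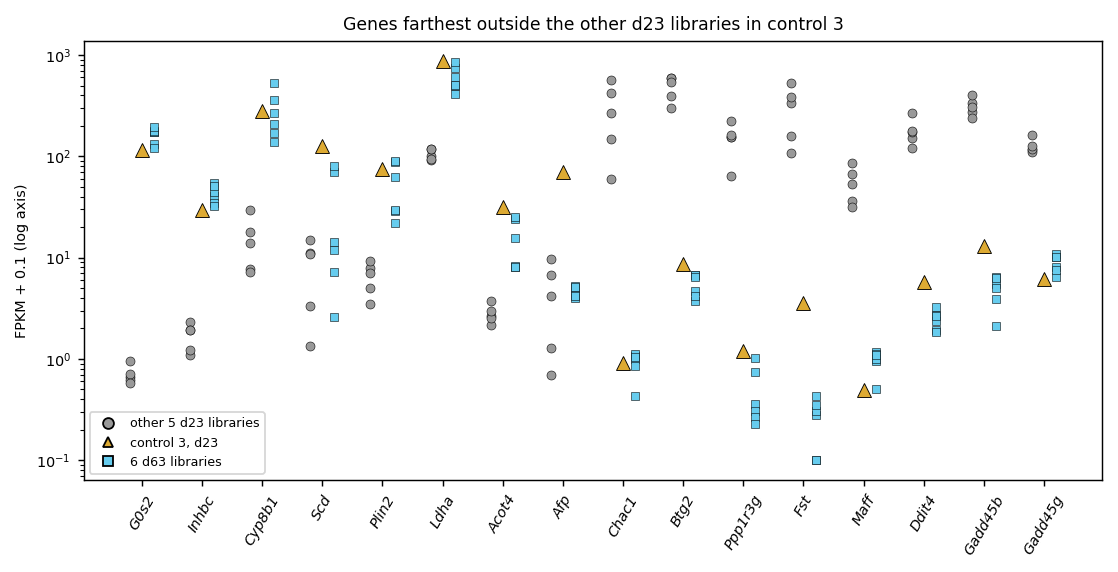
FPKM + 0.1 on a log axis for the 8 genes farthest above and the 8 farthest below the other d23 libraries in control 3 (triangle), with grey circles for the other 5 d23 libraries and squares for the 6 d63 libraries. For G0s2, Cyp8b1, Ldha, Chac1 and Gadd45g the triangle lies with or beside the squares, whereas for Afp it lies above both.

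The promoters of some of these genes carry the letters of known response elements. As examples, 6 that hold such letters are shown, from genes that lay outside the other d23 libraries in control 3. Promoters of other such genes are not shown, and shares over whole lists are given after the sequences. Each is the 250 bases before the annotated start, 5′ to 3′ on the gene's strand, from RefSeq on build GRCr8, which may differ from the build of the counts. In the first 3, from proliferation genes, capitals mark CCAAT boxes and the letters TTTGAA of the cell cycle homology region, on either strand. In Btg2 and Maff they mark the cAMP response element TGACGTCA, and in Chac1 the letters TGATGNAA, which ATF4 and C/EBP proteins bind as a pair, read there on the opposite strand.
Cdk1, chr20:19265043-19265292, plus strand: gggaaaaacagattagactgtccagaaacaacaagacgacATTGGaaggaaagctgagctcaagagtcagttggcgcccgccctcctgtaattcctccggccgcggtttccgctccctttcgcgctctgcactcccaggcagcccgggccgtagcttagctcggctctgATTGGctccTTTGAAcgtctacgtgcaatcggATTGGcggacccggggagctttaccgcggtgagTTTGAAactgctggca
Cdc20, chr5:137255800-137256049, minus strand: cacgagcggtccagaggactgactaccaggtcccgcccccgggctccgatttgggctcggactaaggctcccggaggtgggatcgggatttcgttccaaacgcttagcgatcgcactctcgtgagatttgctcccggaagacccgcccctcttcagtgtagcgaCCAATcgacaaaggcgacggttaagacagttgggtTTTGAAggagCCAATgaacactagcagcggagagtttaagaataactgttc
Birc5, chr10:103571896-103572145, plus strand: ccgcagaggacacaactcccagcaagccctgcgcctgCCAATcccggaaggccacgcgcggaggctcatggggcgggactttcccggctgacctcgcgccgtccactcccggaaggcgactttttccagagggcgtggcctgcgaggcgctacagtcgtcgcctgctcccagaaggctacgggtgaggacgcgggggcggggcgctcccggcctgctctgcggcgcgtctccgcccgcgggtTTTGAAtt
Btg2, chr13:48087691-48087940, minus strand: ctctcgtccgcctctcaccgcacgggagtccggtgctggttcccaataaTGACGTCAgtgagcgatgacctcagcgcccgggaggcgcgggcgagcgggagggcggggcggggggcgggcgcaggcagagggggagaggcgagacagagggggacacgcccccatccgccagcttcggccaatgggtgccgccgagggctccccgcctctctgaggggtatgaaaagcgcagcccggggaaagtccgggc
Maff, chr7:112792537-112792786, plus strand: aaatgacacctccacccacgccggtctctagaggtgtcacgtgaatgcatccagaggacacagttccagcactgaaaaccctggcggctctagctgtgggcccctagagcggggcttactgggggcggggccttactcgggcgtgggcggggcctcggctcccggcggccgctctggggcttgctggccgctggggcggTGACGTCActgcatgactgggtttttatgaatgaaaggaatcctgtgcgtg
Chac1, chr3:126795881-126796130, plus strand: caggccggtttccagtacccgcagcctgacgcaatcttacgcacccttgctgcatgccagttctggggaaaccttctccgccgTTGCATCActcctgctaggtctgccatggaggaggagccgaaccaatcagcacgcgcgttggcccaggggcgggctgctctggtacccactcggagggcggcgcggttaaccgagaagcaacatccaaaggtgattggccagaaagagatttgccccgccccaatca
CCAAT on either strand was found in 17 of 24 matched proliferation promoters (70.8%) and in 34.0% of 33469 promoters of the same length. TTTGAA was found in 8 of the 24 (33.3%), against 16.2%. The response element TGACGTCA was in 3 of 17 immediate early promoters (17.6%), against 1.59%, and TGATGNAA in 5 of 19 promoters of the amino acid stress list (26.3%), against 3.4%. Cholesterol synthesis promoters held CCAAT in 15 of 18 (83.3%). For a list, a gene counted if any promoter under its symbol matched, while the share over all promoters counted each promoter. Where a gene has several promoters, these shares are unlike measures. The amino acid stress list holds genes of the ATF4 response, so its share describes the list and not these libraries. A match of letters is a description, not a binding site.

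**Figure D5:**
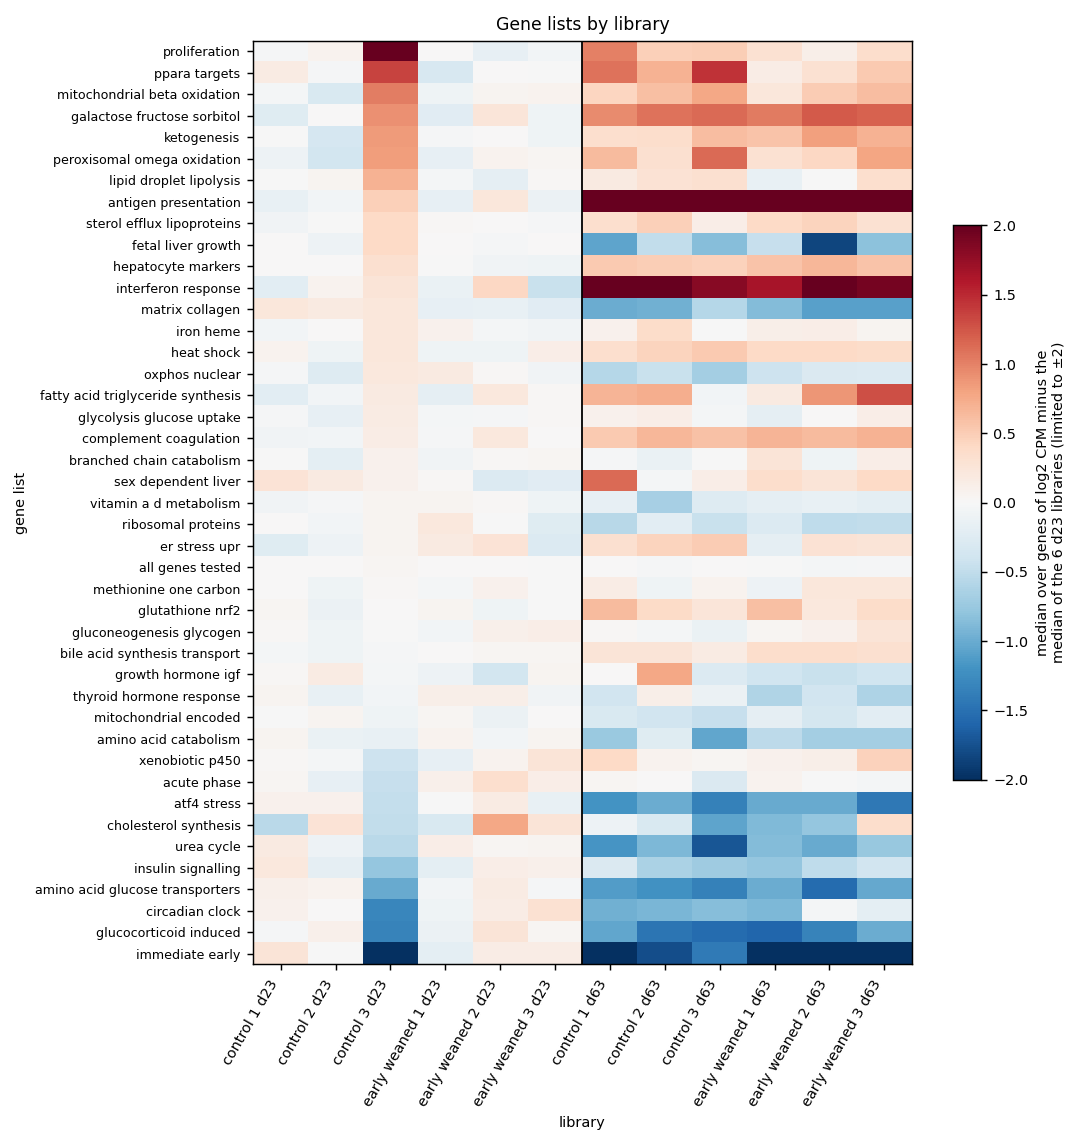
Median deviation in log2 CPM from the middle of the 6 d23 libraries (colour, limited to ±2) for each gene list (vertical axis) in the 12 Wistar libraries (horizontal axis, d23 left of the line). Control 3 of d23 is blue, like the d63 columns, in the immediate early and glucocorticoid-induced lists at the bottom, and the matrix list is red in all 3 d23 controls and blue in all 3 early weaned d23 libraries.

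Markers of other cell types and organs were read in the same libraries. Several exocrine pancreas transcripts stood higher in control 1 and early weaned 2 and 3. Ctrb1, chymotrypsinogen, was at 3.84, 2.23 and 13.9 FPKM there and at 0.00 to 0.24 FPKM in the other 3 libraries. The pancreas list's median log2 fold change of 1.32 moved with these libraries, and 2 of its 15 markers were at 0 throughout. Of 10 tested, 9 were higher and 1 lower. Cela1 was the lower one, without overlap, at 7.23, 8.13 and 19.9 FPKM in controls against 4.86, 5.55 and 4.81 FPKM. Cpb1 was present in all 6 libraries, at 0.91 to 5.92 FPKM. The list's summed FPKM was 22.7, 10.6 and 21.1 in controls and 7.06, 15.2 and 47.4 in early weaned livers. Lymphocyte markers summed to 17.8, 17.8 and 20.5 FPKM in controls and to 12.9, 15.4 and 14.04 FPKM in early weaned livers, without overlap. Of 18 tested, 12 were lower, with a median of -0.54, and 3 were lower without overlap, against 4.12% of all genes. Most of each sum came from Cd4 and Ccl5. Cd4 differed little, at 8.86 to 9.88 against 8.24 to 8.62 FPKM, and Ccl5 was at 4.44 to 6.87 against 1.83 to 3.89 FPKM. Cd3d, Cd3e, Cd3g, Cd79a and Cd79b were below 1 FPKM in every d23 library and overlapped between groups. Whether the number of lymphocytes differed was not tested. Erythroid markers were lower in 9 of 11, with sums from 5125 to 7215 FPKM in controls and from 3799 to 5210 FPKM in early weaned livers. Endothelial markers had a median of 0.03. Whether other cells took part in the matrix or acute phase differences was not tested.

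Side by side with d63, the groups failed to overlap in the same direction at both ages for 46 genes higher and 125 lower in early weaned livers. These are 7.14% of the genes higher at d23 and 19.7% of those lower, whereas 4.93% of all tested genes were higher and 13.7% lower without overlap at d63. They are 6.05% and 5.92% of the genes apart in that direction at d63. The opposite direction at d63 was seen for 69 of the genes higher and 8 of those lower at d23. At d63 itself 0 genes passed in edgeR (0.0%), with 933 at an unadjusted p below 0.05 (6.05%, 2.13% higher and 3.92% lower), and 1 of the 3 d63 controls lacked Y-chromosome transcripts. DESeq2 counts for d23 and for the difference between the ages are given with the alternatives.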

How the data were processed

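Per the labels' protocols, column-purified liver RNA went into a template-switching mRNA library preparation. The authors deposited estimated counts and FPKM per gene, per the file headers. For the aligner and counter, names were not given in the sources used here. Builds GRCm38 and mm10, both of mouse, stand in the submitters' processing notes. The gene IDs and coordinates of the table are of rat, in an unnamed build. Low counts pile up at multiples of about 4 units, so 3 fragments, the limit a count of 0 allows, were taken as 12 units.

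Counts, which are whole in the table, were fitted with edgeR 4.0.16 in R 4.3.3 over the 12 Wistar libraries (53165564 to 71638683 units each), with TMM scaling, filterByExpr at a minimum count of 10, and 1 mean per age and group. This left 15416 of 32623 genes, 8 residual degrees of freedom and a common biological coefficient of variation of 0.404. The code was tested on simulated data. Contrasts were early weaned over control at d23, at d63, and their difference, called at a Benjamini-Hochberg adjusted p below 0.05. FPKM gave levels and overlap. DESeq2 1.42.0, limma 3.58.1, other scalings and filters, and left-out libraries were alternatives.

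Genes were named if called, if among the 8 of smallest p in each direction without overlap and with a mean FPKM of at least 1, if among the 2 of smallest p in a list, if on a panel of liver genes, if among the 8 in each direction farthest outside the other libraries in control 3, or if among the 6 in each direction of smallest p without control 3. Further list members are named as examples chosen after their values were seen. The comparison and the lists were chosen with earlier results of these data known. The fits with Y-chromosome transcripts were added after seeing the data. The Sprague Dawley libraries were not used here. Some genes are not reported here.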

Additional observations from a re-analysis of the deposited data

Results flagged for a closer look

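The early weaning effect on AABR07070810 (ENSRNOG00000061579) differed between the ages by -2.27 on the log2 scale, d23 minus d63, by the interaction term of edgeR (adjusted p 0.0319). The effect was -2.16 at d23, and all 3 early weaned libraries were below all 3 controls there. The groups overlapped at d63. No gene was called for this difference with the replicate block, or without control 1, control 2 or early weaned 2. The entry is 1 of 4 that carry ribosomal protein L12, and whether reads were divided differently among these copies was not tested.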

How the results depend on the processing

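The count of 2 genes at d23 was 113 in DESeq2 (48 higher, 65 lower), 6 and 4 in limma on log2(FPKM + 1) and log2(FPKM + 0.1), 6 in limma voom with quality weights, 5 without a filter and 1 in the 6 d23 libraries alone, where Asb15 passed and AABR07070810 did not. With choices made after seeing the data it was 7 in the d23 libraries alone without control 3, 0 with the Y-chromosome term and 1 in the libraries with Y-chromosome transcripts. Leaving out 1 library gave 1 to 6 genes: 1 without control 1, control 2 or early weaned 2, 3 without control 3, 6 without early weaned 1 and 4 without early weaned 3. For the difference between the ages, 1 gene became 46 in DESeq2, 2 in limma on log2(FPKM + 1), 2 in the libraries with Y-chromosome transcripts, and 0 to 3 when 1 library was left out (0 without control 1, control 2 or early weaned 2, 3 without control 3, 2 without early weaned 1). With the replicate block 1 gene was called at d23 and 0 for the difference. Deviations from the group mean in log2 CPM correlated at 0.0446, 0.0671 and 0.127 between same-numbered d23 samples. Between d23 samples of different number they correlated at -0.129 to 0.061. At d63 the same-numbered values were -0.108, -0.0563 and 0.0218. The labels name no pairs, so the numbers were not taken to pair samples in the main fit. The cause of these shifts was not tested. For single genes, 21 were followed under the alternatives: those called, and those of smallest p without overlap, with or without control 3. The direction and side of the threshold held in 343 values, 39 passed newly, 15 no longer passed and none changed direction. Because these genes were picked from the same data for groups that lie apart, a kept direction was likely beforehand and is no support. The smallest differences readable are limited by 3 libraries per group and by counts under 12 units.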
